A study of Drosophila melanogaster with 4 samples.

Results

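The genes described here encode the factors that start, extend and end protein synthesis: the eukaryotic initiation (eIF), elongation (eEF) and release (eRF) factors. They were taken by name, as every gene in the deposited table whose symbol begins with eIF, eEF or eRF, leaving out eIF4EHP, and made up 52 of 13931 genes. The values count small RNAs bound to Piwi, an Argonaute protein that is guided by its small RNAs (piRNAs) to silence transposons. The cells were ovarian somatic cells (OSC), a cultured Drosophila melanogaster line from the ovarian soma, grown at 26 degrees and transfected with plasmids and siRNAs. All 4 libraries carried the siRNA named siYb and came from RNA of 23 to 30 nucleotides in Flag-Piwi immunoprecipitates, so both groups share this siRNA and the tagged Piwi. In 2 libraries (Yb WT) the plasmid held wild-type Yb, and in the other 2 (Yb ΔHel-C) it held Yb lacking the part named Hel-C. The libraries are of transfected bulk cultures, and the labels do not say what share of the cells took up the plasmid.

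In translation, eIF1, eIF1A, eIF2 and eIF3 gather on the small ribosomal subunit with the initiator tRNA, while eIF4E, eIF4G and eIF4A bring it to the capped end of an mRNA. The elongation factors then deliver tRNAs and move the ribosome along, and the release factors act at the stop codon. In OSC, piRNAs come from long precursor transcripts of piRNA clusters and also from mRNAs, often from their 3' UTRs, and Yb is a Tudor-domain protein of the perinuclear bodies in which precursors are sorted for processing. A read on a factor gene is thus a Piwi-bound small RNA assigned to that gene. It measures neither the amount of the mRNA nor translation.

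The deposited table gives 1 value per group and gene in RPM (reads per 1000000 reads), so the spread between libraries is unknown and every difference below lacks a replicate check. A read was worth 0.338 RPM in Yb WT (2955141 reads) and 0.357 RPM in Yb ΔHel-C (2803305 reads). Intervals are exact 95% intervals that cover counting error only, not the spread between libraries. No molecular identifiers are named, so copies of 1 RNA may count as separate reads and even counting error may be understated. Of the 52 genes, 42 averaged 1 RPM or more over both columns and are called measured. A gene is called 2-fold higher or lower in Yb ΔHel-C when log2 of its fold, taken on RPM + 0.5, reaches 1 or -1 and the interval of its ratio leaves out 1. Over all 7577 genes past this minimum the median log2 fold was 0.89. That median moved by -0.79 with edgeR's TMM factors, by -0.84 with its RLE factors and by -0.27 when scaled to the gene reads, so each value below is also to be read against it. The somatic markers tj, fs(1)Yb, piwi, zfh1, Fas3, ct, bab2 and ptc were all measured and summed to 9690 RPM in Yb WT against 10280 RPM in Yb ΔHel-C. The sum is mostly tj, which went from 6972 to 4481 RPM. Of the 8 markers, ptc, piwi and Fas3 were called higher, beside 41.1% of all genes, though not with TMM or RLE. With TMM and RLE 2 were called lower, tj (log2 folds -1.48 and -1.53) and ct (-1.09 and -1.14), beside 11.9% and 12.5% of all genes. Yb came from the plasmid and Piwi was the tagged protein, so fs(1)Yb and piwi are weak markers of cell identity here. The 8 germline markers vas, osk, nos, aub, AGO3, bam, bgcn and zpg summed to 25.7 and 21.8 RPM, with vas at 0 in Yb WT and at 2 reads in Yb ΔHel-C. Of the 5 germline markers that were measured, 1 was called, and it was lower, beside 3.47% of all genes called lower. This was aub, at 32 and 14 reads, with a ratio of 0.461 (0.227 to 0.889). The aub locus overlaps TTLL4A, and the part of this overlap was not tested.

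Of the measured translation factor genes, 40 carried more Piwi-bound reads in Yb ΔHel-C on the authors' totals, as most genes did, while 21 of the 42 lay below 0 with TMM and 23 with RLE. Of the 42 measured genes, 15 (35.7%) were called 2-fold higher, none lower and 27 neither. The rule left out eIF4EHP, whose symbol also begins with eIF and which was called lower (1961 to 701 RPM). The counts here and the sum and share below are without it. Over all genes 41.1% were called higher and 3.47% lower, so the share called among factor genes lay near the background. Their median log2 fold of 0.83 lay 0.06 below the median of all genes, with an interquartile range of 0.63 to 1.28 against 0.24 to 1.44 for all genes. The 52 genes summed to 3603 RPM in Yb WT against 5706 RPM in Yb ΔHel-C, a ratio of 1.58 (interval 1.55 to 1.62) that fell under 1 with TMM (0.883) and RLE (0.853). As a share of all gene reads they went from 0.561% (0.551 to 0.572) to 0.723% (0.712 to 0.735). This is the same comparison as scaling to the gene reads, with a ratio of 1.29. Under that scaling the median log2 fold was 0.54 for the factor genes and 0.62 for all genes. In bulk RNA, a change in the share of cells with loaded Piwi and a change in loaded RNA per cell cannot be told apart.

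**Figure D1:**
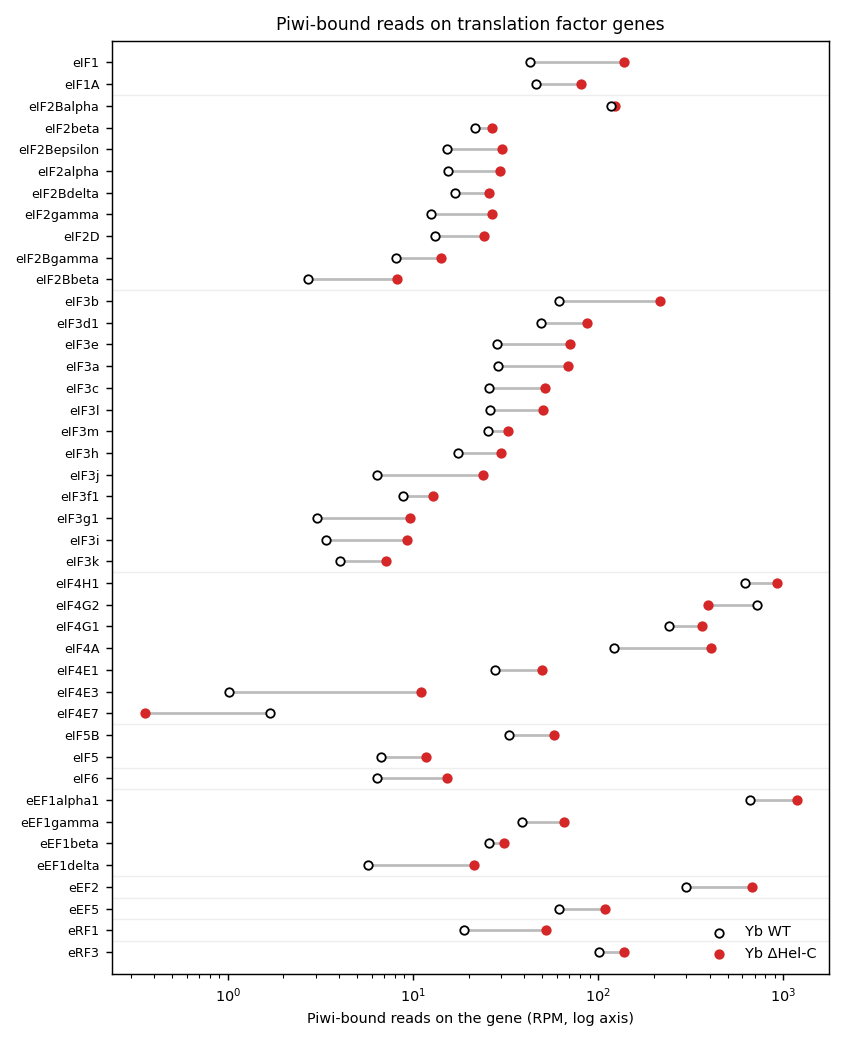
Level of Piwi-bound reads (RPM, log axis) on each of the 42 measured factor genes in Yb WT (open circles) and Yb ΔHel-C (filled red circles), ordered by factor group and by mean level within it. The filled circle lies to the right for 40 genes and to the left for eIF4G2 and eIF4E7 on the authors' totals, whereas 21 genes lay below 0 with TMM and 23 with RLE.

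The call depended on how the columns were scaled. The log2 folds of the 15 genes called higher ranged from 0.25 to 2.24 with TMM, from 0.20 to 2.19 with RLE and from 0.78 to 2.80 when scaled to the gene reads. Each scaling moves all genes by nearly the same amount, less than the threshold of 1, so it could not bring a called gene below 0. Past 2-fold they numbered 3 with TMM, 1 with RLE and 10 when scaled to the gene reads, against 9.62%, 8.02% and 28.5% of all genes called higher. Of the 25 genes above 0 that were not called, 19 lay below 0 with TMM and 21 with RLE. The genes eIF4G2 and eIF4E7 lay below 0 in every scaling. By 2-fold alone, with no condition on the interval, 15 genes were higher and 1 lower, against 44.9% and 4.98% of all genes. By the interval alone, with no minimum fold, 33 were higher and 1 lower, against 58.2% and 8.14%.

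**Figure D2:**
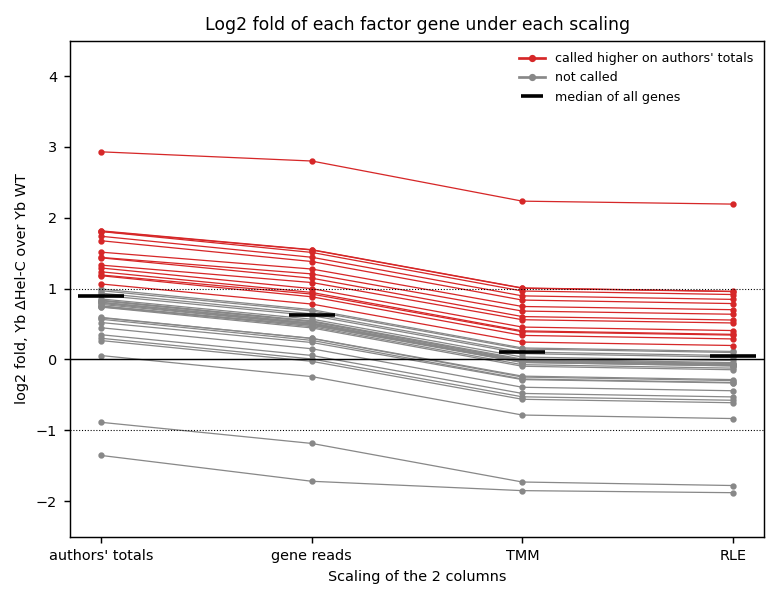
Log2 fold of the 42 measured factor genes (Yb ΔHel-C over Yb WT, vertical axis) under 4 scalings of the columns (horizontal axis), 1 line per gene, red where called higher on the authors' totals. Black bars mark the median of all 7577 genes, which went from 0.89 on the authors' totals to 0.10 with TMM and 0.054 with RLE, and the factor genes shifted with it.

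The factor genes were also set beside all genes of like read level. Of the 9 measured factor genes with a mean of 100 RPM or more, 3 were called higher and their median log2 fold was 0.59, beside 29.5% and 0.53 for the 1343 genes of that class. Between 10 and 100 RPM, 8 of 26 were called higher with a median of 0.85, beside 54.9% and 1.09 over 3209 genes. Between 1 and 10 RPM, 4 of 7 were called higher with a median of 1.33, beside 31.5% and 0.78 over 3025 genes.

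**Figure D3:**
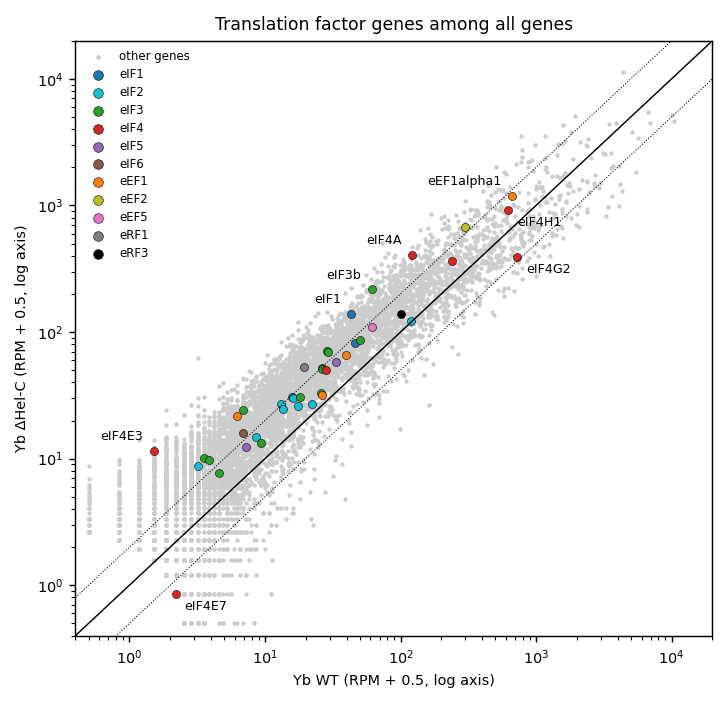
Level in Yb WT (horizontal) against Yb ΔHel-C (vertical), in RPM + 0.5 on log axes, for the 42 measured factor genes (coloured by group) and the other genes past the same minimum (grey). The solid line marks equal levels and the dotted lines 2-fold, and the factor genes lie within the cloud of all genes, with eIF4G2 and eIF4E7 below the solid line.

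The scaffold factor eIF3, which binds the small ribosomal subunit, was the largest group. Of its 16 genes 13 were measured, of which 6 were called higher (46.2%, near the 41.1% of all genes), none lower and 7 neither. All 13 lay above 0 on the authors' totals, with a median log2 fold of 0.99, which came to 0.16 with TMM and 0.11 with RLE. Beside the median of all genes that was 0.10 above. The core subunit eIF3b (2R, 17536213 to 17539142, dm6) had 182 reads (61.6 RPM) in Yb WT against 607 (217 RPM) in Yb ΔHel-C. That is 3.52-fold higher (2.97 to 4.17), with log2 folds of 0.97 with TMM and 0.92 with RLE, just under 2-fold.

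The loosely held subunit eIF3j (2R, 9968929 to 9970897) went from 19 to 67 reads, or 6.43 to 23.9 RPM, a ratio of 3.72 (2.21 to 6.55). Its log2 fold of 1.82 was the highest of the eIF3 genes, and with TMM it was still called (1.01), but not with RLE (0.96). The largest subunit, eIF3a, went from 28.8 to 68.5 RPM, 2.38-fold higher (1.84 to 3.11). Another subunit, eIF3e, went from 28.4 to 70.3 RPM, 2.47-fold higher (1.91 to 3.23). Neither stayed past 2-fold when scaled to the gene reads (log2 folds of 0.95 and 0.9998), with TMM or with RLE.

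The remaining eIF3 genes called higher had few reads. The RNA-binding subunit eIF3g1 had 9 and 27 reads (3.05 and 9.63 RPM), a ratio of 3.16 (1.44 to 7.64). The WD-repeat subunit eIF3i had 10 and 26 reads (3.38 and 9.27 RPM), a ratio of 2.74 (1.28 to 6.37). Both intervals span more than a 4-fold range, so these ratios are known only roughly.

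Other eIF3 subunits lay near or under the threshold. The core subunit eIF3c had a ratio of 2.01 (1.51 to 2.69) and a log2 fold of 0.99, so it just missed the call, and eIF3l followed at 1.93 (1.45 to 2.58). The ratios of eIF3d1 (49.4 and 86.7 RPM), eIF3h and eIF3k were 1.75 (1.42 to 2.17), 1.70 (1.19 to 2.46) and 1.76 (0.818 to 3.94), and all 3 lay below 0 with TMM and RLE. The lowest of the group was eIF3m, at 75 and 91 reads (25.4 and 32.5 RPM), a ratio of 1.28 (0.932 to 1.76) whose interval holds 1 and whose log2 fold was -0.48 with TMM and -0.53 with RLE. As with eIF3m and eIF3k, the interval of eIF3f1 holds 1, at 26 and 36 reads, and its direction turned with TMM and RLE. Subunits of 1 complex therefore spread over log2 folds from 0.35 to 1.82.

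**Figure D4:**
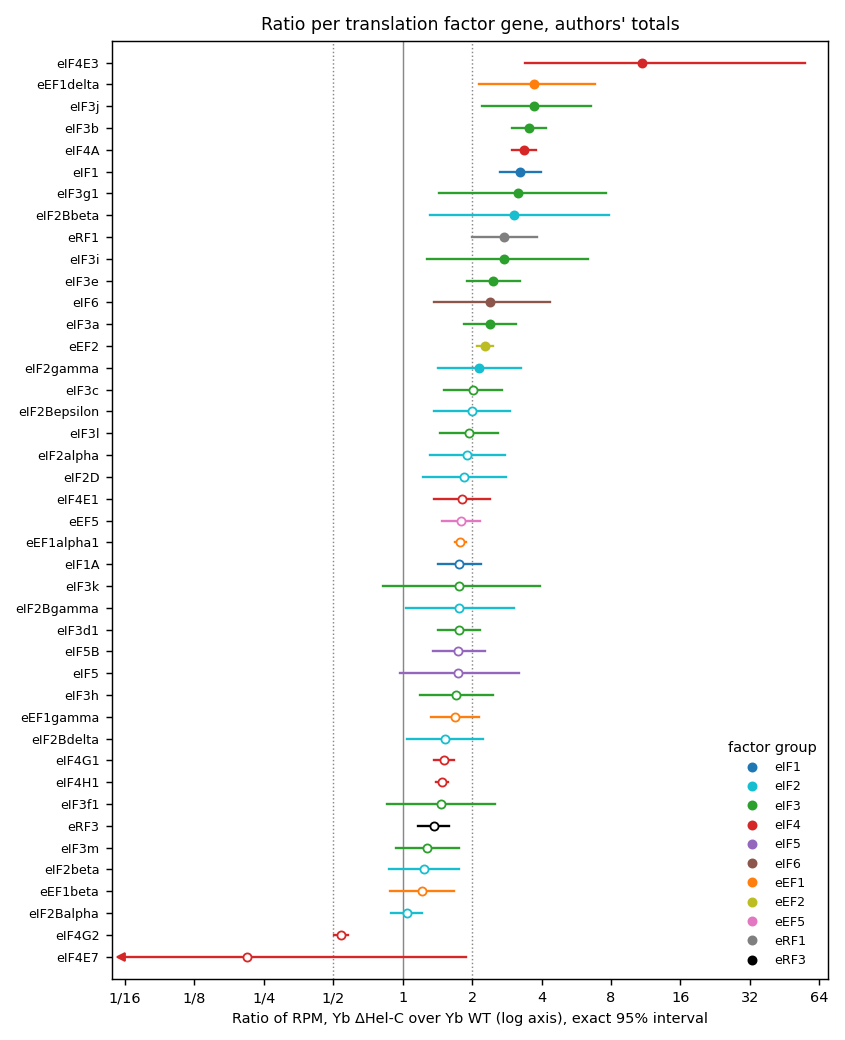
Ratio of RPM in Yb ΔHel-C over Yb WT (log axis) for each measured factor gene, on the authors' totals, with its exact 95% interval for counting error, coloured by factor group. Filled points are the 15 genes called 2-fold higher, lines mark ratios of 1, 2 and 1/2, and the arrow marks an interval that runs past the axis (eIF4E7).

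The cap-binding group eIF4 held the widest spread, from a log2 fold of -1.36 to 2.93. Both ends rest on few reads, 5 and 1 on eIF4E7 and 3 and 31 on eIF4E3, and eIF4E7 reached the minimum only through Yb WT. Among eIF4 genes with a mean of 10 RPM or more, log2 folds ran from -0.89 (eIF4G2) to 1.74 (eIF4A). Of its 12 genes 7 were measured, of which 2 were called higher (28.6%, beside 41.1% of all genes), none lower (3.47% of all genes) and 5 neither. Its median of 0.59 lay 0.30 below that of all genes and turned negative with TMM (-0.25) and RLE (-0.30). The helicase gene eIF4A (2L, 5981764 to 5985909), whose protein unwinds the mRNA leader, had 359 reads (121 RPM) in Yb WT against 1140 (407 RPM) in Yb ΔHel-C. That is 3.35-fold higher (2.97 to 3.78), and its log2 fold of 1.74 was 1.44 when scaled to the gene reads, 0.90 with TMM and 0.85 with RLE. Its locus overlaps no other annotated gene.

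The scaffold genes eIF4G1 and eIF4G2 went apart. The product of eIF4G1 (chromosome 4, 915297 to 930715) is the general scaffold that joins eIF4E and eIF4A, and eIF4G2 (3R, 23808285 to 23819237) encodes a relative known for its role in male germ cells. The reads on eIF4G1 were 710 (240.3 RPM) in Yb WT against 1017 (363 RPM) in Yb ΔHel-C, a ratio of 1.51 (1.37 to 1.66) that turned lower with TMM (log2 fold -0.25) and RLE (-0.30). The eIF4G2 reads were 2137 (723 RPM) and 1095 (391 RPM), 1.85-fold lower (1.72 to 1.99). With a log2 fold of -0.89 eIF4G2 missed the call on the authors' totals, and it was called lower when scaled to the gene reads (-1.19), with TMM (-1.73) and with RLE (-1.78). Of the 52 genes, which leave out eIF4EHP, it was the only one called lower in any scaling. Of all genes 5.24% (gene reads), 11.9% (TMM) and 12.5% (RLE) were.

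Within each column, where no scaling enters, eIF4G1 held 24.9% (23.4 to 26.6) of the reads on the pair in Yb WT and 48.2% (46.0 to 50.3) in Yb ΔHel-C. The log2 fold of eIF4G2 lay 1.78 below the median of all genes, and 5.53% of genes lay lower. The whole eIF4G2 locus lies inside the annotated spans of CG33111 and CG34355. The reads on CG33111 went from 66.3 to 33.2 RPM and those on CG34355 from 4.06 to 1.43 RPM, each lower in Yb ΔHel-C as well. The sources used here do not say whether the authors counted by strand, and the part of the overlap in these values was not tested.

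The family of eIF4E, the protein that binds the mRNA cap, was led by eIF4E1. Its reads were 82 (27.7 RPM) in Yb WT against 140 (49.9 RPM) in Yb ΔHel-C, a ratio of 1.80 (1.36 to 2.39) whose log2 fold was 0.0045 with TMM and -0.045 with RLE. The paralog eIF4E3 (3L, 8229224 to 8230568), known for a role in the testis, had 3 reads (1.02 RPM) and 31 reads (11.1 RPM). Its ratio of 10.9 (3.40 to 55.7) was the highest of all factor genes and the one that stayed past 2-fold in every scaling, with log2 folds of 2.24 with TMM and 2.19 with RLE. Of all genes 99.2% had a lower log2 fold on the authors' totals. The share of eIF4E reads on eIF4E3 went from 3.23% (0.670 to 9.14) to 17.6% (12.3 to 24.1), and that on eIF4E1 from 88.2% (79.8 to 93.9) to 79.5% (72.8 to 85.2). The intervals of the first share, for counting error only, do not overlap, and those of the second do. How often shares in other gene families part in this way was not counted.

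The other eIF4E paralogs were at the edge of detection. There were 5 reads and 1 read on eIF4E7, a ratio of 0.211 (0.0045 to 1.88) whose interval holds 1, so its difference was not detectable at this depth. With 3 and 0 reads, eIF4E4 was below the minimum, as was eIF4E6 with 0 and 4 reads, and eIF4E5 was listed at 0 in both columns. For the helicase cofactors, eIF4H1 (X, 16448665 to 16454972) had 1841 reads (623 RPM) and 2588 reads (923 RPM), 1.48-fold higher (1.40 to 1.57), which turned with TMM (log2 fold -0.28) and RLE (-0.33). The second copy eIF4H2 had 1 read in each column. The gene of the other cofactor, eIF4B, was listed at 0 in both columns, and its locus lies wholly inside that of lncRNA:CR46482.

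Genes of eIF2, the GTPase that carries the initiator tRNA, and of eIF2B, the exchange factor that recharges it, mostly lay near the median of all genes. All 9 were measured, of which 2 were called higher (22.2%, beside 41.1% of all genes) and 7 were not called. Their median log2 fold of 0.85 was 0.034 with TMM and -0.014 with RLE. The gene of the GTP-binding subunit, eIF2gamma, went from 37 to 75 reads, or 12.5 to 26.8 RPM, 2.14-fold higher (1.42 to 3.26). Its locus shares 64.0% of its span with Su(var)3-9, whose reads went from 45 to 83, a ratio of 1.94. The subunit gene eIF2alpha, whose product is the target of the stress kinases, went from 15.6 to 29.6 RPM, a ratio of 1.90 (1.31 to 2.79), and eIF2beta from 21.7 to 26.8 RPM, a ratio of 1.24 (0.873 to 1.75) that turned with TMM (-0.53) and RLE (-0.58). For eIF2D, which can place a tRNA on the ribosome without eIF2, the ratio was 1.84 (1.22 to 2.80).

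Among the 5 subunits of eIF2B the median log2 fold was 0.78, which turned with TMM (-0.029) and RLE (-0.076). The regulatory subunit gene eIF2Balpha (3R, 29934582 to 29935888) had 349 reads (118 RPM) and 344 reads (123 RPM), a ratio of 1.04 (0.893 to 1.21) that fell under 1 in the other scalings, 0.84 below the median of all genes on the log2 scale. At the other end eIF2Bbeta had 8 and 23 reads (2.71 and 8.20 RPM), a ratio of 3.03 (1.31 to 7.84), and was called higher. Between them, eIF2Bdelta, eIF2Bgamma and the catalytic subunit gene eIF2Bepsilon had ratios of 1.52 (1.04 to 2.22), 1.76 (1.03 to 3.05) and 1.99 (1.37 to 2.93), of which the first and second turned with TMM and RLE. Within the columns, eIF2Balpha held 73.3% (69.1 to 77.2) of eIF2B reads in Yb WT and 61.0% (56.8 to 65.0) in Yb ΔHel-C. These intervals, for counting error only, do not overlap, and the rate of this in other gene families was not counted.

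The factors of start codon selection differed from each other. The reads on eIF1 (3L, 3223341 to 3224650), which guards against wrong start codons, went from 127 (43.0 RPM) to 388 (138 RPM), 3.22-fold higher (2.63 to 3.97), with log2 folds of 1.38 when scaled to the gene reads, 0.84 with TMM and 0.79 with RLE. Its partner eIF1A went from 136 reads (46.0 RPM) to 227 reads (81.0 RPM), a ratio of 1.76 (1.42 to 2.19) that turned with TMM (-0.028) and RLE (-0.077). The intervals of these ratios, which share both columns, do not overlap. They cover counting error only, and how often those of other gene pairs fail to overlap was not counted. The GTPase activator eIF5 (20 and 33 reads) and the subunit-joining GTPase eIF5B (98 and 162 reads) had nearly equal ratios of 1.74 (0.969 to 3.20) and 1.74 (1.35 to 2.26), and both turned with TMM and RLE. The anti-association factor gene eIF6 had 19 and 43 reads (6.43 and 15.3 RPM), 2.39-fold higher (1.36 to 4.33). Its locus lies wholly inside that of ytr, on which the reads went from 236 to 370 RPM.

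Levels of different genes were compared per length. Per kilobase of annotated gene span, introns included, eEF1alpha1 had 144 RPM in Yb WT against 256 RPM in Yb ΔHel-C, the highest of all factor genes in both columns. Next in Yb WT on that scale came eIF4H1 (98.8), eIF2Balpha (90.4), eEF2 (70.2) and eIF4G2 (66.0). In Yb ΔHel-C the next were eEF2 (159), eIF4H1 (146), eIF1 (106) and eIF4A (98.1), and eIF4G2 stood at 35.7.

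Of the 8 elongation factor genes 6 were measured, of which 2 were called higher (33.3%, beside 41.1% of all genes), none lower and 4 neither. The gene eEF1alpha1 (2R, 11891135 to 11895762), whose product delivers aminoacyl-tRNAs, had 1963 reads (664 RPM) and 3315 reads (1183 RPM). That is 1.78-fold higher (1.68 to 1.88), but lower with TMM (log2 fold -0.011) and RLE (-0.061). Its second copy eEF1alpha2 had 3 reads and 1 read, and the sources used here do not say how reads shared by such copies were assigned. Of the exchange factor subunits of eEF1, eEF1delta (2L, 10232507 to 10234450) went from 17 to 60 reads (5.75 to 21.4 RPM), a ratio of 3.72 (2.14 to 6.80), and was called also with TMM (1.01) but not with RLE (0.96). The partner subunits eEF1beta, with 76 and 87 reads, and eEF1gamma, with 115 and 183 reads, had ratios of 1.21 (0.877 to 1.66) and 1.68 (1.32 to 2.14), and both turned with TMM and RLE.

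The translocation factor gene eEF2 (2L, 21677913 to 21682164) had 882 reads (298 RPM) in Yb WT against 1900 (678 RPM) in Yb ΔHel-C. That is 2.27-fold higher (2.10 to 2.46), with log2 folds of 1.18 on the authors' totals, 0.88 when scaled to the gene reads, 0.34 with TMM and 0.29 with RLE. The gene eEF5, of the factor also known as eIF5A, went from 61.2 to 109 RPM, a ratio of 1.78 (1.48 to 2.15) that came to -0.0095 with TMM and -0.059 with RLE. The selenocysteine factor gene eEFSec had 0 and 2 reads.

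The pair of release factor genes also parted. The reads on eRF1, which reads the stop codon, went from 56 (19.0 RPM) to 146 (52.1 RPM), 2.75-fold higher (2.01 to 3.81), with log2 folds of 1.15 when scaled to the gene reads, 0.61 with TMM and 0.56 with RLE. On eRF3, its partner GTPase, there were 298 reads (101 RPM) and 386 reads (138 RPM), a ratio of 1.37 (1.17 to 1.59) that turned with TMM (-0.39) and RLE (-0.44). The intervals of the ratios, for counting error only, do not overlap, and the rate of this among other gene pairs was not counted. The eRF1 locus overlaps 425 bases of CG5618, whose reads went from 69.0 to 64.2 RPM.

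How the factor reads divide among the groups does not depend on scaling. The initiation factors held 66.3% (65.4 to 67.2) of all factor reads in Yb WT and 60.1% (59.3 to 60.8) in Yb ΔHel-C. The eIF4 group went from 48.3% (47.3 to 49.2) to 37.6% (36.9 to 38.4), while eIF4G2 alone went from 20.1% (19.3 to 20.8) to 6.85% (6.46 to 7.25). Without eIF4G2 the eIF4 group held 35.3% (34.3 to 36.3) and 33.0% (32.3 to 33.8) of the rest. The eIF3 group went from 8.01% (7.50 to 8.54) to 11.7% (11.2 to 12.2), or from 10.02% (9.39 to 10.7) to 12.6% (12.1 to 13.1) with eIF4G2 left out, and in it eIF3b went from 21.3% (18.6 to 24.2) to 32.4% (30.2 to 34.5) of the eIF3 reads. The share of eEF2 went from 8.28% (7.77 to 8.82) to 11.9% (11.4 to 12.4), and that of eEF1 from 20.4% (19.7 to 21.2) to 22.8% (22.1 to 23.4). The release factors stayed at 3.32% (2.99 to 3.68) and 3.33% (3.05 to 3.62). These shares were chosen after the values were seen.

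**Figure D5:**
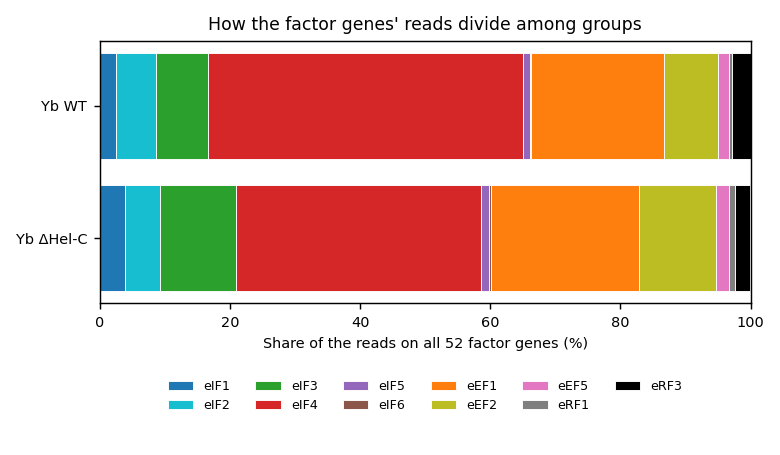
Share of the reads on all 52 factor genes (horizontal axis, %) that fell on each factor group in Yb WT (10647 reads) and Yb ΔHel-C (15997 reads). The eIF4 segment shrinks from 48.3% to 37.6% and the eIF3 segment widens from 8.01% to 11.7%, and the 2 reads of eEFSec in Yb ΔHel-C are too few to show.

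The 10 genes that were not measured were mostly paralogs. Listed at 0 in both columns were eIF3d2, eIF3f2, eIF3g2, eIF4B and eIF4E5. Where reads of a gene were counted, a 0 in Yb WT allows at most 1.02 RPM and one in Yb ΔHel-C 1.07 RPM (3 reads each). The first copies of the eIF3 pairs, eIF3d1, eIF3f1 and eIF3g1, had 146, 26 and 9 reads in Yb WT.

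Position, span and overlap were compared with those of all genes. The 42 measured genes lay on chromosome arms 2L (6), 2R (11), 3L (8), 3R (9), 4 (1) and X (7), with a median span of 2124 bases against 2982 for all measured genes with a position. The locus of 22 of them (52.4%) overlaps another annotated gene, as does that of 51.6% of the 6904 measured genes with a position. Among the 22, 7 were called higher with a median log2 fold of 0.83, and among the 20 without overlap 8 were called higher with a median of 0.89.

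Other genes of translational control, from a list of 25, were counted in the same way. Of 24 measured, 10 were called higher and 1 lower, and 13 were not called, beside 41.1% and 3.47% of all genes. Among the 10, the genes Thor and nero reached the minimum mean of 1 RPM only through Yb ΔHel-C (0 and 0.677 RPM in Yb WT). Their calls are thus not independent of that minimum. The median log2 fold of 0.84 came to 0.0044 with TMM and -0.045 with RLE. The cap-binding repressor eIF4EHP, left out of the factor genes and placed in this list, was the one called lower. It went from 1961 to 701 RPM, with a log2 fold of -1.48 that fell further with TMM (-2.33) and RLE (-2.38). As the list was chosen with earlier results of these data known, its lower count is not an independent result. The kinase gene Lk6, whose product acts on eIF4E, had 1632 and 1817 RPM, a ratio of 1.11 (1.07 to 1.16) that turned in the other scalings. The eIF5-related gene kra went from 267 to 749 RPM, 2.81-fold higher (2.59 to 3.05), and the eIF2alpha kinase gene PEK from 65.3 to 195 RPM, 2.98-fold higher (2.53 to 3.53), while both stayed under 2-fold with TMM and RLE. The kra locus overlaps snoRNA genes, and that of eIF4EHP overlaps CG10694 and Syx1A. The part of these overlaps in the values was not tested. The recycling factor gene pix was 2.11-fold higher (1.94 to 2.30), also under 2-fold when scaled otherwise. The gene of the eIF4E inhibitor Thor had 0 reads in Yb WT against 8 in Yb ΔHel-C, 2.81-fold over the limit that 3 reads set for a 0. This value takes the 8 reads as exact, so it is not a lower bound of the ratio.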

How the data were processed

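The authors deposited 1 table with 1 value column per group, in RPM, as judged from the values, since its header names no unit. Per the submitters' processing notes, the tools were STAR and HTSeq and the builds dm6 and BDGP6, without versions. The sources used here do not give whether a group's libraries were pooled, the strand setting, or the rule for reads with several positions. Every value above 0 (100%) is a whole multiple of 1 step per column within 0.01 read, so reads were recovered, and 0 columns of another series were present. Gene reads were 1896511 (64.2% of the total) and 2211638 (78.9%).

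The members, lists and tests were chosen with earlier results of these data known. With 1 column per group, no count test was run. Ratios have Clopper-Pearson intervals (scipy 1.17.1). These were checked on simulated data that held counting error alone, so the check does not bear on the spread between libraries. Scaling alternatives used edgeR 4.0.16 in R 4.3.3 for TMM and RLE factors only. Genes named are all called ones, the 5 with the most reads, the extremes of each group and all paralogs, to which the other members were added. From the translation control and mitochondrial lists at most 6 each are named, by call and level. The hypusine enzyme genes nero and CG8005, of the translation control list, were added to these. Positions are RefSeq's for Release 6 (dm6), in which all 52 symbols matched, and their spans include introns.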

Additional observations from a re-analysis of the deposited data

How the results depend on the processing

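On the authors' totals 15 factor genes were called 2-fold higher, none lower, and the median log2 fold was 0.83. With TMM these were 3, 1 and -0.0025, with RLE 1, 1 and -0.052, and scaled to the gene reads 10, 1 and 0.54. By 2-fold alone, 1 gene (eIF4E7) was lower, and with no minimum fold 33 were higher and 1 lower. Without genes whose locus overlaps another, 8 of 20 were higher. The summed ratio of 1.58 became 0.883 (TMM), 0.853 (RLE), 1.29 (gene reads), 1.87 (without overlapping loci) and 2.02 without the 3 genes with the most reads, the last chosen after seeing the data. Group medians turned negative with TMM and RLE for eIF2B (-0.029 and -0.076), eIF4 (-0.25 and -0.30), eIF5 (-0.042 and -0.090) and eEF1 (-0.054 and -0.10), and with RLE for eIF2 (-0.014). With a pseudocount of 0.1 or 1 RPM, no gene's log2 fold left the interval of its ratio. With 0.1 RPM 16 genes were called higher, as eIF3c reached a log2 fold of 1.005, and with 1 RPM 15 were. Scaling moves all genes by nearly 1 factor, less than 2-fold, so no called gene could change sign, and the values cannot decide which total is right. No paired analysis was possible because the table gives 1 column per group, and no library could be left out for the same reason. Depth limits single genes: the interval of the median gene spanned a 1.89-fold range.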

Other observations

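Genes of the mitochondrial translation factors, which serve the separate ribosomes of that organelle, were set beside the cytosolic ones. Of 10 matched genes 9 were measured, of which 6 were called 2-fold higher and none lower, and 3 were not called, beside 41.1% of all genes called higher and 3.47% lower. The median log2 fold of 1.24 was 0.42 with TMM and 0.37 with RLE. The elongation factor gene mEFTs went from 216 reads (73.1 RPM) to 1411 reads (503 RPM), 6.89-fold higher (5.96 to 7.98). Its log2 fold of 2.78 was 1.94 with TMM and 1.89 with RLE, past 2-fold in each, and its locus overlaps no other annotated gene. A gene of its partner factor, mEFTu2, had 12 and 44 reads, 3.87-fold higher (2.01 to 8.04), and was called also with TMM (log2 fold 1.04) but not with RLE (0.99). The initiation factor genes mIF2 and mIF3 were 2.37-fold (1.16 to 5.14) and 2.41-fold (1.66 to 3.55) higher, under 2-fold with TMM and RLE. The ribosome recycling gene mRRF2 went from 28 to 86 reads, 3.24-fold higher (2.09 to 5.15), also under 2-fold with TMM and RLE. The release factor gene mRF1 had 4 and 16 reads, a ratio of 4.22 (1.36 to 17.3), and was not called with TMM or RLE. The loci of mEFTu2, mIF3, mRRF2 and mRF1 each overlap another annotated gene (didum, CG8841, CG31161 and Ski6), and the part of these overlaps was not tested. The difference between the mitochondrial and cytosolic lists was not tested.

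The genes nero and CG8005 encode the enzymes that make hypusine, the modified lysine of eEF5. The reads on nero went from 2 to 23, a ratio of 12.1 (3.00 to 106) with log2 folds of 2.24 with TMM and 2.20 with RLE. At 0.677 RPM in Yb WT, nero passed the minimum of 1 RPM only through Yb ΔHel-C. Those on CG8005 were 14 and 13, a ratio of 0.979 (0.424 to 2.24).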
